A study of Homo sapiens with 36 samples.

Results

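The genes described are 52 splicing factors: SR proteins, SR-related and nuclear speckle proteins, hnRNP proteins and core spliceosome subunits. They were chosen by gene name, from the symbols that GENCODE release 29 gives for the identifiers in the deposited tables, out of 58219 genes in the RNA tables. The list was drawn up with earlier results of these data known, so the counts, medians and p-values given for it describe the list and are no independent evidence about its direction. The cells were WiT49, an established line from an anaplastic Wilms tumor, a kidney tumor of childhood. They received 2 nM of actinomycin D (actD), which inserts into DNA and can stop RNA polymerases, or the vehicle DMSO (dimethyl sulfoxide). Which polymerases it stopped at this dose was not tested. Treatment lasted 6 h, 72 h or 2 weeks, and the 2-week course had 2 cycles of 7 days, each made of 3 days with drug or vehicle and 4 days in plain medium. Total RNA and ribosome footprints (the stretches of message shielded from nuclease by ribosomes) were sequenced in 3 libraries per group, 36 in all, from this 1 cell line, and no genotype or other agent differs between the groups. The labels call the 3 libraries of a group replicates without saying whether they were separate cultures, so p-values measure the spread between libraries. For RNA at 2 weeks titles and library names assign opposite treatments, so below "named actd" and "named dmso" refer to the library names, and differences are given in that order.

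Splicing removes introns from the nascent transcript. SR proteins carry a domain rich in arginine and serine, bind exons and favour their inclusion, whereas many hnRNP proteins coat the transcript and can block splice sites. The spliceosome itself is built from small nuclear ribonucleoproteins (U1, U2, U4/U6 and U5), and many of its factors are stored in nuclear speckles. Many SR and hnRNP genes also limit their own messages through exons that lead to decay of the transcript.

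All 52 genes had counts in every RNA library, whereas footprints were sparse. The RNA libraries held 40221994 to 69240041 counts, and the median splicing gene had 4232.5 to 12737.5. The footprint libraries held 152556 to 1281039 counts, of which the 52 genes together took 344 to 4163, and the median splicing gene had 4 to 64. Protein-coding genes held 2.12% to 40.4% of footprint counts. At 72 h the actD footprint libraries were deeper than the DMSO ones, with 784322, 416131 and 693951 counts against 440974, 215298 and 152556. A count of 0 allows up to 3 counts, which at 72 h was 3.57 to 37.3 CPM in footprints and at most 0.0801 CPM in RNA (CPM, counts brought to a common library size). The labelled cell type was checked on its RNA at 72 h. Of 14 genes of Wilms tumor and nephron progenitors, 7 exceeded 1 CPM in the DMSO median, while SIX2, CITED1, EYA1, PAX2, PAX8, SALL1 and MEOX1 lay under that level. The 14 summed to 2106 to 2580 CPM in DMSO and 2121 to 2427 in actD, most of it IGF2 (1489 to 1815 CPM in DMSO). All 4 epithelial and 3 of 4 mesenchymal markers exceeded 1 CPM (CDH1 barely, with a DMSO median of 1.02, and COL1A2 was at 0). Their sums were 1071 to 2169 and 627 to 751 CPM in DMSO and 999 to 1677 and 695 to 1154 in actD. Their part in the results was not tested. Of 7 markers of blood, endothelial, liver and glial cells none exceeded it, with sums of 0.294 to 0.695 CPM in DMSO and 0.392 to 0.504 in actD. Changes in cell number and in RNA per cell cannot be told apart in such bulk libraries.

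2 promoter windows are shown, because only these 2 genes had a single listed window that lies outside every annotated gene. SNRNP200, the U5 helicase that unwinds U4 from U6, had the most negative RNA difference of the 52 genes at 72 h (log2 fold change -1.38). SRSF6, an SR protein, was lower too (-0.36). Each window is the 250 bases before the RefSeq start in GRCh38.p14, 5′ to 3′, and capitals mark GGGCGG (the core of a GC box) or CCAAT on either strand.
SNRNP200: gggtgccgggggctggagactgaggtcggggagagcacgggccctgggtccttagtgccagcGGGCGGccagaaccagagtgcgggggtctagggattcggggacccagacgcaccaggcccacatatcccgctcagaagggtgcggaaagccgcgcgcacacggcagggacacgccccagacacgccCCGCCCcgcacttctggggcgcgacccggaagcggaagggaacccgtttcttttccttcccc
SRSF6: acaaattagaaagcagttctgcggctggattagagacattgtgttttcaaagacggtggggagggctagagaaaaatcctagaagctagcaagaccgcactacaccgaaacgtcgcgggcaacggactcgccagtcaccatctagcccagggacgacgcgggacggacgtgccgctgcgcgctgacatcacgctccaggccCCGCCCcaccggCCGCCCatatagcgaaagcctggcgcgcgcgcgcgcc
The SNRNP200 window lies at chr2:96305547-96305796 on the minus strand and the SRSF6 window at chr20:43457646-43457895 on the plus strand. The SNRNP200 window has 25 GpC steps, the base pair step at which actD inserts into DNA, a GC content of 70.0% and 2 matches to GGGCGG. The SRSF6 window has 31 GpC steps, a GC content of 61.6% and 2 matches to GGGCGG. Neither window holds CCAAT. Windows were matched for 46 of the 52 genes, all but HNRNPA1, RBM39, SF3B3, SFPQ, SRSF2 and TRA2A. Their median number of GpC steps was 28.75, against 24 over 14896 protein-coding genes. GGGCGG was present in 65.2% of them against 63.2% of protein-coding genes, and CCAAT in 54.3% against 40.5%. Across the 46 genes, the number of GpC steps and the RNA difference at 72 h had a Pearson r of 0.11 and a Spearman rho of 0.08, given as a description, since genes share the same libraries.

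At 6 h 3 hnRNP genes and the SR protein SRSF1 stood highest in vehicle-treated cells. Levels per kilobase of merged exons in the 3 DMSO libraries at 6 h averaged 209.8 ± 18.4 CPM per kilobase for HNRNPAB, an A/B-type hnRNP (mean ± SD, n = 3, as for all means below). HNRNPK, which binds C-rich RNA, followed with 125 ± 9.46 CPM per kilobase, HNRNPA1, an exon repressor, with 122 ± 15.2, and the SR protein SRSF1 with 118 ± 13.7. The levels of HNRNPK, HNRNPA1 and SRSF1 overlapped between libraries. At 72 h HNRNPAB was again first with 131 ± 41.7 CPM per kilobase, followed by SRSF1 with 101.2 ± 39.8, and their ranges overlapped. At 2 weeks, in the libraries named dmso, HNRNPA1 came first with 127 ± 7.84, HNRNPAB second with 83.5 ± 11.2 and SRSF1 stood at rank 5 with 59.1 ± 10.8. At the low end of the 6 h levels stood PTBP2, the neuronal relative of PTBP1, with 3.33 ± 0.0821 CPM per kilobase. It was listed at 0 in all 18 footprint libraries. HNRNPA1 has many near-identical processed copies in the genome, so its counts are uncertain.

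**Figure D1:**
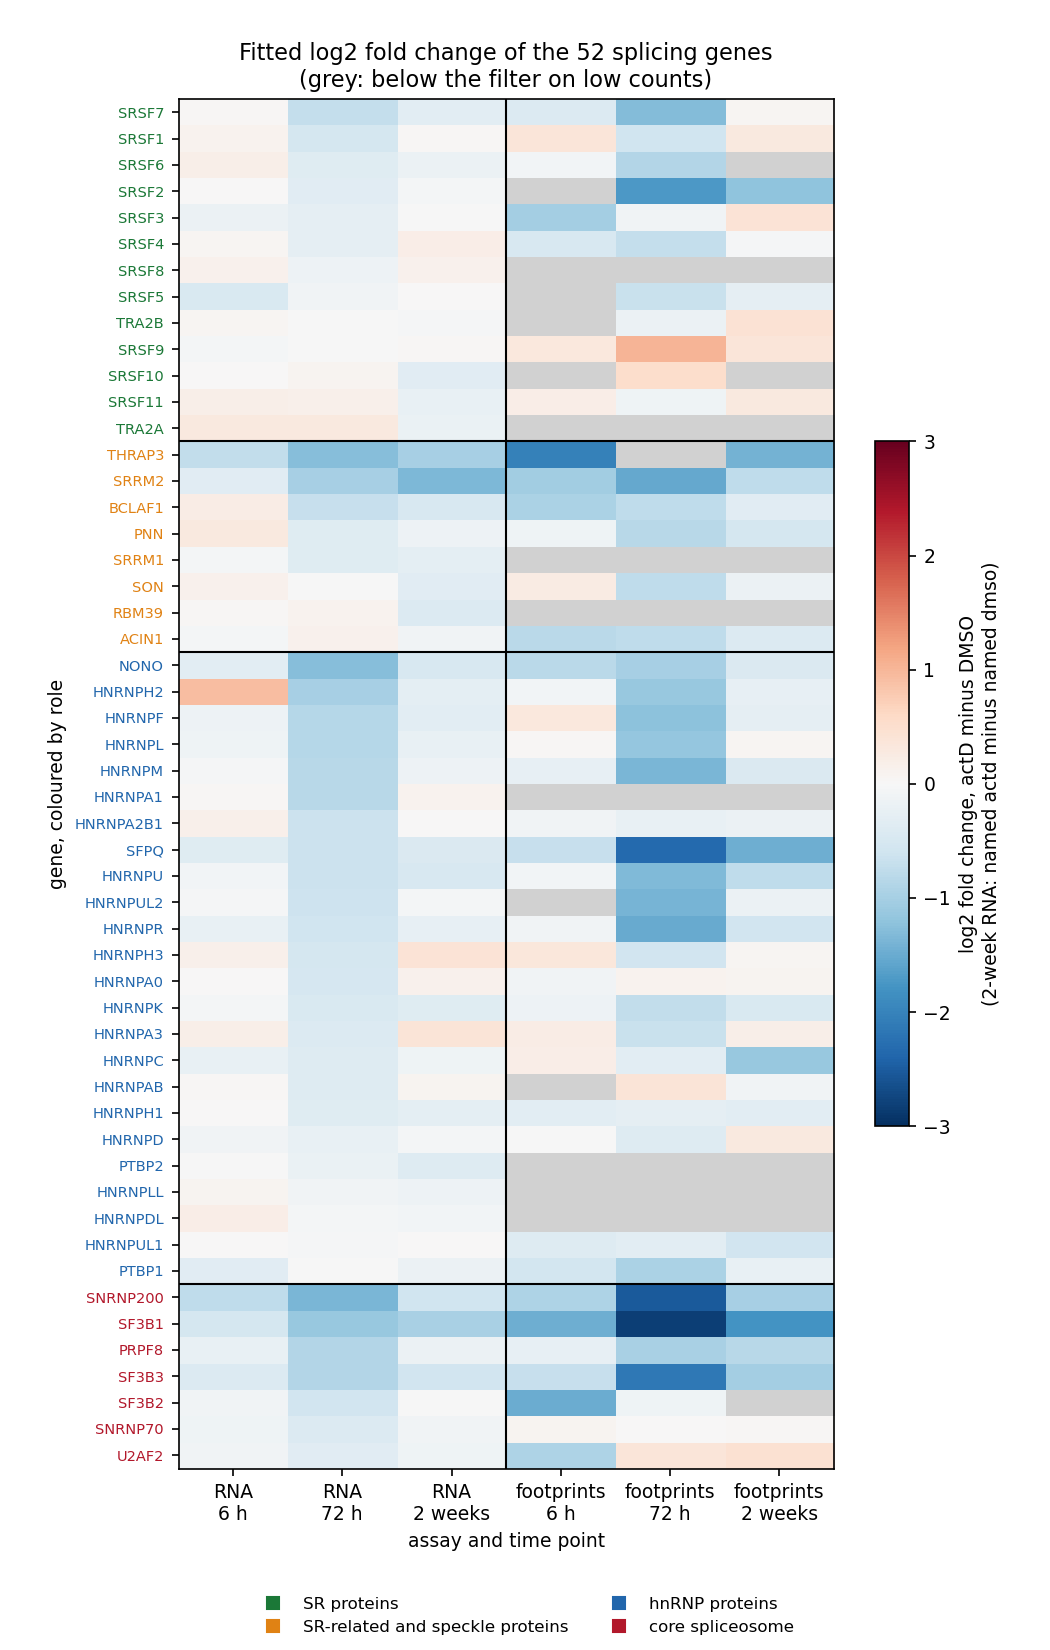
Fitted log2 fold change (actD minus DMSO) of each of the 52 splicing genes, in rows by role, in the 6 assay and time point combinations, in columns. Blue is lower in actD, red is higher, and grey genes fell below the filter on low counts. In RNA at 72 h 47 of 52 genes are blue, and in footprints at 72 h 37 of 43.

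The first comparison asked how the RNA of these genes differed between actD and DMSO. At 6 h their log2 fold changes centred on 0, at 72 h nearly all were negative, and at 2 weeks most were. The median was -0.02 at 6 h, -0.39 at 72 h and -0.17 at 2 weeks, against 0.02, 0.02 and -0.02 over all genes tested. Of the 52 genes, 27 were lower at 6 h, 47 at 72 h and 40 at 2 weeks, and of all genes 47.0%, 48.6% and 53.2%. Over protein-coding genes alone, from the same fit, 47.6%, 54.6% and 50.1% were lower, and at 72 h their median was -0.05. Of the 2214 protein-coding genes that were also tested in footprints, 68.3% were lower in RNA at 72 h, with a median of -0.17, beside 40 of 43 splicing genes and -0.46. The share of counts on protein-coding genes differed between the groups too. At 72 h it was 54.3%, 57.8% and 62.4% in actD and 63.2%, 66.9% and 67.6% in DMSO, and at 2 weeks 59.3%, 54.7% and 52.9% in the libraries named actd and 61.1%, 62.0% and 62.5% in those named dmso, without overlap at either time. At 6 h it overlapped, with 75.4%, 76.3% and 72.5% in actD and 72.2%, 75.5% and 76.1% in DMSO. Its part in the result was not tested. With scaling and fit on protein-coding genes alone, 42 of 52 were lower at 72 h. None of the 52 passed at any time with edgeR (quasi-likelihood, adjusted after Benjamini and Hochberg over all genes), and among all genes 0%, 0.00472% and 0% passed. DESeq2 called 2, 6 and 3 of the 52 genes lower, and 0.618%, 2.26% and 0.492% of all genes. Below an unadjusted p of 0.05 and lower in actD were 6, 12 and 9 of the 52, where 4.54%, 7.78% and 4.93% of all genes were. All 3 actD libraries lay below all 3 DMSO libraries for 10, 14 and 10 of the 52, against 8.17%, 10.3% and 7.83% of all genes.

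The 52 genes together took 1.497% ± 0.145 of protein-coding RNA counts in actD and 1.59% ± 0.0947 in DMSO at 6 h, where the groups overlapped. At 72 h the share was 1.17% ± 0.0605 in actD and 1.47% ± 0.398 in DMSO. The DMSO libraries ranged from 1.07% to 1.87% and the actD libraries lay within that range. At 2 weeks it was 1.18% ± 0.136 with the name actd and 1.38% ± 0.0874 for named dmso, with overlap.

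DMSO replicate 3 stood apart from the other DMSO libraries at 72 h in both assays. After centring each gene, the median of the splicing genes minus that of all genes was 0.27, 0.43 and -0.21 (log2) in RNA of the DMSO replicates 1 to 3, and -0.30, -0.16 and -0.11 in the actD libraries. In footprints it was 0.56, 0.75 and -0.48 in DMSO and -0.55, -0.38 and -0.22 in actD. DMSO replicate 3 therefore lay among the actD libraries, and it was also the shallowest footprint library. Without it, the splicing genes' median minus that of all genes was -0.70 instead of -0.41 in RNA, and -1.09 instead of -0.83 in footprints. Without DMSO replicate 2, the highest library, it was -0.31 in RNA and -0.66 in footprints. Single genes depended on DMSO replicate 2 as well: without it the RNA log2 fold change at 72 h was -0.90 instead of -1.38 for SNRNP200, -0.70 instead of -1.27 for THRAP3, -0.55 instead of -0.88 for PRPF8, -0.32 instead of -0.52 for SRSF1 and -0.27 instead of -0.64 for HNRNPA2B1. None of these passed with or without it.

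**Figure D2:**
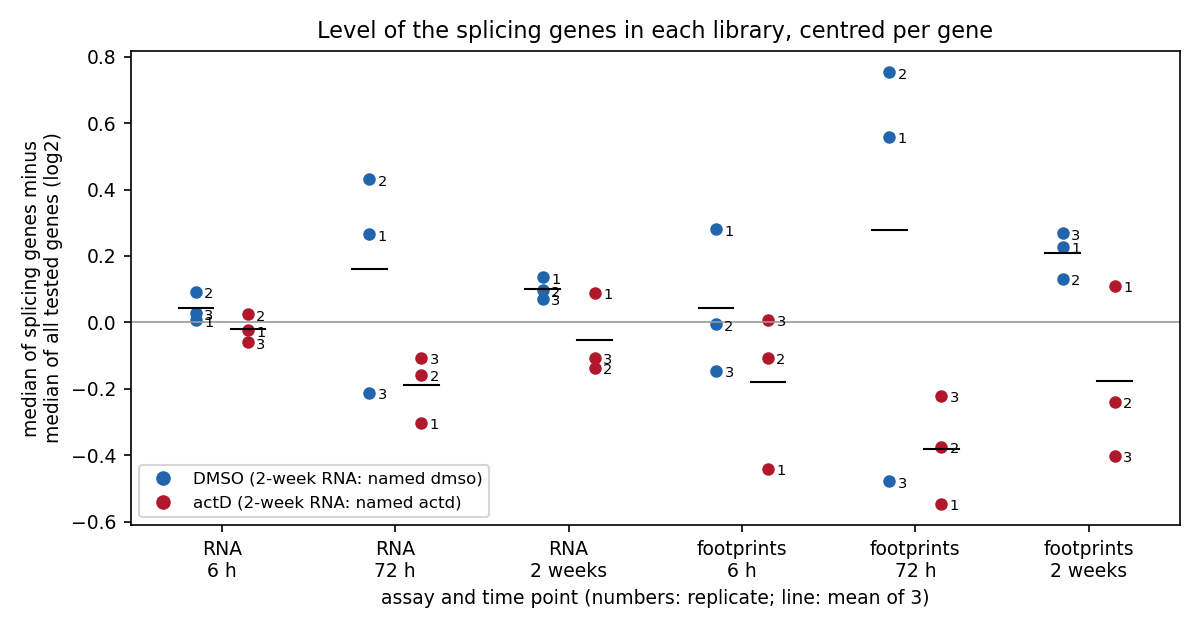
Median level of the splicing genes minus the median of all tested genes (log2, y axis) in each of the 36 libraries, after centring each gene on its table, by assay and time point (x axis). Points are single libraries with their replicate number and lines are means of 3. At 72 h DMSO replicate 3 lies at -0.21 in RNA and -0.48 in footprints, among the actD libraries.

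Core spliceosome subunits had the most negative RNA differences at 72 h, with a median log2 fold change of -0.87 and 7 of 7 lower. SNRNP200 was at 78.8, 88.3 and 90.8 CPM in the actD libraries and at 205, 352 and 115 in DMSO. The groups did not overlap, and DMSO replicate 3 was again the lowest vehicle library (log2 fold change -1.38, SE 0.38, edgeR adjusted p = 0.268). SF3B1, the subunit of the U2 complex SF3b that holds the branch point, was at 95.0, 110 and 150 CPM in actD and 230, 362 and 183 in DMSO (log2 fold change -1.13, SE 0.31, edgeR adjusted p = 0.267). Its partner SF3B2 had a log2 fold change of -0.57. SF3B3, also of SF3b, was at -0.87, with 83.1, 84.4 and 101 CPM in actD and 183, 214 and 93.4 in DMSO. For SF3B3 the groups overlapped through DMSO replicate 3 alone. PRPF8, the scaffold of the U5 particle at the catalytic centre, was at 121, 133 and 126 CPM against 228, 328 and 143 (log2 fold change -0.88, SE 0.30, edgeR adjusted p = 0.316). U2AF2, which recognises the polypyrimidine tract, and the U1 protein SNRNP70 were at -0.35 and -0.40.

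The hnRNP genes, counted with PTBP1, PTBP2 and the paraspeckle proteins SFPQ and NONO, were lower in 24 of 24 cases at 72 h, with a median of -0.51. With protein-coding genes alone 22 of 24 were lower. HNRNPA1 was at 309, 279 and 234 CPM in actD and at 526, 460 and 469 in DMSO. Its 3 DMSO libraries were close together and all above actD (log2 fold change -0.82, SE 0.20, edgeR adjusted p = 0.257). NONO was at 136, 170 and 208 CPM against 305, 615 and 336 (log2 fold change -1.29, SE 0.32, edgeR adjusted p = 0.26), with the spread set by DMSO replicate 2. HNRNPF, which binds G-rich runs, was at 106.2, 118 and 101 CPM against 227, 217 and 148, and HNRNPL, which binds CA repeats, at 77.6, 84.6 and 100.1 against 181, 184 and 110. Both sets of libraries were separate, with log2 fold changes of -0.86 and -0.85 (edgeR adjusted p = 0.263 and 0.276). The most abundant member by CPM, HNRNPA2B1, was at 356, 463 and 357 CPM against 551, 887 and 394, and its groups overlapped (log2 fold change -0.64). At the other end stood PTBP1 and HNRNPUL1, both at -0.02, with 133 ± 29.9 against 134 ± 4.88 CPM and 165 ± 6.89 against 167 ± 26.5.

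SR proteins had the median nearest to 0 of the 4 roles. At 72 h it was -0.15, with 10 of 13 lower (8 of 13 with protein-coding genes alone). SRSF7, which also promotes RNA export, was at 66.8, 76.8 and 68.9 CPM in actD and at 133, 119 and 96.7 in DMSO, without overlap (log2 fold change -0.72, SE 0.20, edgeR adjusted p = 0.265). SRSF1, the most abundant of the group, was at 238, 251 and 217 CPM against 398, 430 and 186, with DMSO replicate 3 below every actD library (log2 fold change -0.52). SRSF9 and TRA2B lay at -0.0022 and -0.01, SRSF10 at 0.07, SRSF11 at 0.16 and TRA2A at 0.30.

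Among SR-related and speckle proteins 6 of 8 were lower at 72 h, with a median of -0.37. THRAP3, which acts in splicing and in messenger RNA decay, was at 41.1, 47.8 and 52.7 CPM in actD and 87.6, 189 and 65.5 in DMSO, without overlap (log2 fold change -1.27, SE 0.39, edgeR adjusted p = 0.282). SRRM2, a scaffold of nuclear speckles, was at 34.1, 40.2 and 70.4 CPM in actD and at 28.7, 240 and 22.7 in DMSO. Its log2 fold change of -1.01 (SE 0.86) therefore rested on DMSO replicate 2, the other DMSO libraries being below every actD library. SON, the other speckle scaffold, was at 233, 246 and 154 CPM against 255, 225 and 160, a log2 fold change of -0.02 whose sign turned in several alternatives. HNRNPH2, of the H family, was at 32.7, 37.3 and 67.7 CPM against 96.6, 98.9 and 77.4 (-0.99, SE 0.30), with the reservation on its counting given below. The 12 genes with the smallest p at 72 h were 5 hnRNP genes (HNRNPA1, NONO, HNRNPF, HNRNPL and HNRNPH2), 5 core subunits (SF3B1, SNRNP200, PRPF8, SF3B3 and SF3B2), SRSF7 and THRAP3, all negative, with edgeR adjusted p from 0.257 to 0.344.

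The number of splicing genes that passed at 72 h differed between tools and fits. A single edgeR fit over the 3 time points called 10 of the 52 lower, against 3.61% of all genes, and DESeq2 called 6, against 2.26% of all genes. The 6 were HNRNPA1, NONO, SNRNP200, HNRNPF, SF3B1 and SRSF7, with DESeq2 adjusted p from 0.0112 to 0.0474. Fitted alone on its 6 libraries with edgeR, the table gave none under any scaling, filter or left-out library.

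At 6 h THRAP3, SNRNP200 and SF3B3, which are among these 12, were also among the 5 genes with the smallest p. THRAP3 was at 131, 149 and 93.9 CPM in actD and 211, 215 and 200 in DMSO (log2 fold change -0.74, SE 0.17, edgeR adjusted p = 0.342). SNRNP200 was at 216, 243 and 137 CPM against 297, 333 and 382 (-0.76, SE 0.21, edgeR adjusted p = 0.463). SF3B3 was at 199.7, 223 and 160 CPM against 276, 252 and 251 (-0.42). None of the 3 overlapped between groups, and actD replicate 3 was the lowest library for each. The other 2 were SRSF5, at 37.6, 35.3 and 31.5 CPM against 42.8, 50.6 and 50.04 (-0.46), and PTBP1, at 143, 168 and 143 against 202, 198 and 176 (-0.34). DESeq2 called THRAP3 and SNRNP200, with adjusted p of 0.0132 and 0.0489. TRA2A went the other way, at 88.6, 86.3 and 86.5 CPM in actD and 64.1, 74.1 and 76.0 in DMSO (0.29). The roles differed at 6 h already. Lower were 7 of 7 core subunits (median -0.23), 13 of 24 hnRNP genes (-0.02), 4 of 8 SR-related proteins (-0.0076) and 3 of 13 SR proteins (0.06). Of all genes 47.0% were lower.

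At 2 weeks SRRM2 had the smallest p of the 52 genes. It was at 50.7, 47.2 and 44.7 CPM in the named actd libraries and at 149, 90.5 and 121 in the named dmso libraries, so the groups were far apart (log2 fold change -1.34, SE 0.18, edgeR adjusted p = 0.114). Without replicate 2 of the named dmso libraries it passed the edgeR test (adjusted p = 0.0398), and DESeq2 called it together with THRAP3 and SF3B1. THRAP3 was at 101, 49.4 and 52.8 CPM against 140, 150 and 116 (-0.99). SF3B1 was at 199, 98.9 and 97.2 CPM against 282, 288 and 209 (-0.98), and SF3B3 at 199, 121 and 135 against 222, 236 and 221 (-0.58). Replicate 1 of those named actd was the highest of its group for these 3 genes. HNRNPH3, an hnRNP of the H family, was higher in the libraries named actd, at 37.8, 35.2 and 39.3 CPM against 27.9, 26.6 and 29.4 (0.42). All of these signs turn if the titles are right.

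HNRNPH2 jumped within groups. It was at 75.3, 79.2 and 1.41 CPM in actD at 6 h and at 79.4, 1.52 and 1.56 in DMSO. The readthrough gene RPL36A-HNRNPH2, which is annotated over it on the same strand, had 101, 32 and 744 counts in the actD libraries and 64, 871 and 929 in DMSO, high where HNRNPH2 was low. How reads were divided between the 2 genes was not tested, and values of HNRNPH2 are uncertain, as are those of HNRNPUL2, which lies under HNRNPUL2-BSCL2. No other member had a same-strand overlapping gene with 200 or more counts in a library.

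The second comparison concerned ribosome footprints. At 72 h footprints on the splicing genes were lower in actD for 37 of the 43 genes that passed the filter on low counts, and the median log2 fold change was -0.75 against 0.07 over all genes tested. Of all genes tested 47.2% were lower. 3 genes fell: HNRNPR, SFPQ and SF3B3. These are 3 of 43, where 3.79% of all genes passed with edgeR. DESeq2 called 4 of the 43 lower, against 2.02% of all genes. Below an unadjusted p of 0.05 and lower were 13 of 43, against 13.1% of all genes, and 13 of 43 did not overlap and were lower, against 16.2%. Since a gene passes the filter only with enough counts in any 3 libraries, these counts describe the 43 and not all 52. The 9 genes below the filter were HNRNPA1, HNRNPDL, HNRNPLL, PTBP2, RBM39, SRRM1, SRSF8, THRAP3 and TRA2A.

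HNRNPR, an RNA-binding protein of the hnRNP Q/R family, had 32.8, 35.3 and 41.6 CPM of footprints in actD and 120, 104 and 87.1 in DMSO, from 7 to 53 counts per library. The groups did not overlap (log2 fold change -1.52, SE 0.32, edgeR adjusted p = 0.0473). The lowest DMSO value, 87.1 CPM in replicate 3, rests on 7 counts, in a library where a count of 0 allows 37.3 CPM. The gene (ENSG00000125944) spans bases 23303771 to 23344336 of chromosome 1 in GRCh38. SFPQ (ENSG00000116560, chromosome 1, 35176378 to 35193148), which works with NONO in paraspeckles, had 31.4, 40.8 and 70.2 CPM against 228, 342 and 137 (-2.32, SE 0.49, edgeR adjusted p = 0.0473). SF3B3 (ENSG00000189091, chromosome 16, 70523788 to 70577670) had 71.7, 95.2 and 113 CPM against 495, 486 and 236 (-2.13, SE 0.46, edgeR adjusted p = 0.0479). In all 3 genes every DMSO library exceeded every actD library, and DMSO replicate 3, the shallowest, was the lowest of its group. HNRNPR did not pass with DESeq2 (adjusted p = 0.0827), in a single edgeR fit over the 3 time points (adjusted p = 0.118) or without the filter on low counts (edgeR adjusted p = 0.168). The calls sat at the threshold: no splicing gene passed with library totals, where 0.289% of all genes did, nor on leaving out replicate 1 or replicate 2 of either treatment. When DMSO replicate 3 was left out, SF3B3 passed (log2 fold change -2.35, edgeR adjusted p = 0.0403) and HNRNPR and SFPQ did not (0.0518 and 0.0517), and without actD replicate 3 SF3B3 did not (0.0535). Across all alternatives the adjusted p ran from 0.0321 to 0.348 for HNRNPR, 0.0095 to 0.277 for SFPQ and 0.0063 to 0.298 for SF3B3.

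SNRNP200 and SRRM2 followed. SNRNP200 had 14.9, 29.9 and 42.8 CPM of footprints in actD against 172, 255 and 62.2 in DMSO (-2.52, SE 0.58, edgeR adjusted p = 0.0558), and DESeq2 called it (adjusted p = 0.0153). SRRM2 had 131, 160 and 151 CPM against 434, 526 and 311 (-1.53, SE 0.40, edgeR adjusted p = 0.0732). Unlike its RNA, its footprints were evenly high in all 3 DMSO libraries. HNRNPU, a chromatin-bound hnRNP with the highest footprint level of its group, had 236, 286 and 156 CPM against 570, 520 and 609 (-1.33). The groups were again separate. THRAP3 fell below the filter, with 10, 3 and 16 counts in actD and 71, 41 and 3 in DMSO (14.9, 8.16 and 19.03 CPM against 161, 137 and 37.3). With no filter, or with protein-coding genes alone, it was fitted and passed the edgeR test (adjusted p = 0.0039 and 0.0301). Under these settings 5 splicing genes passed, beside 2.32% of all genes without the filter and 8.72% with protein-coding genes alone.

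**Figure D3:**
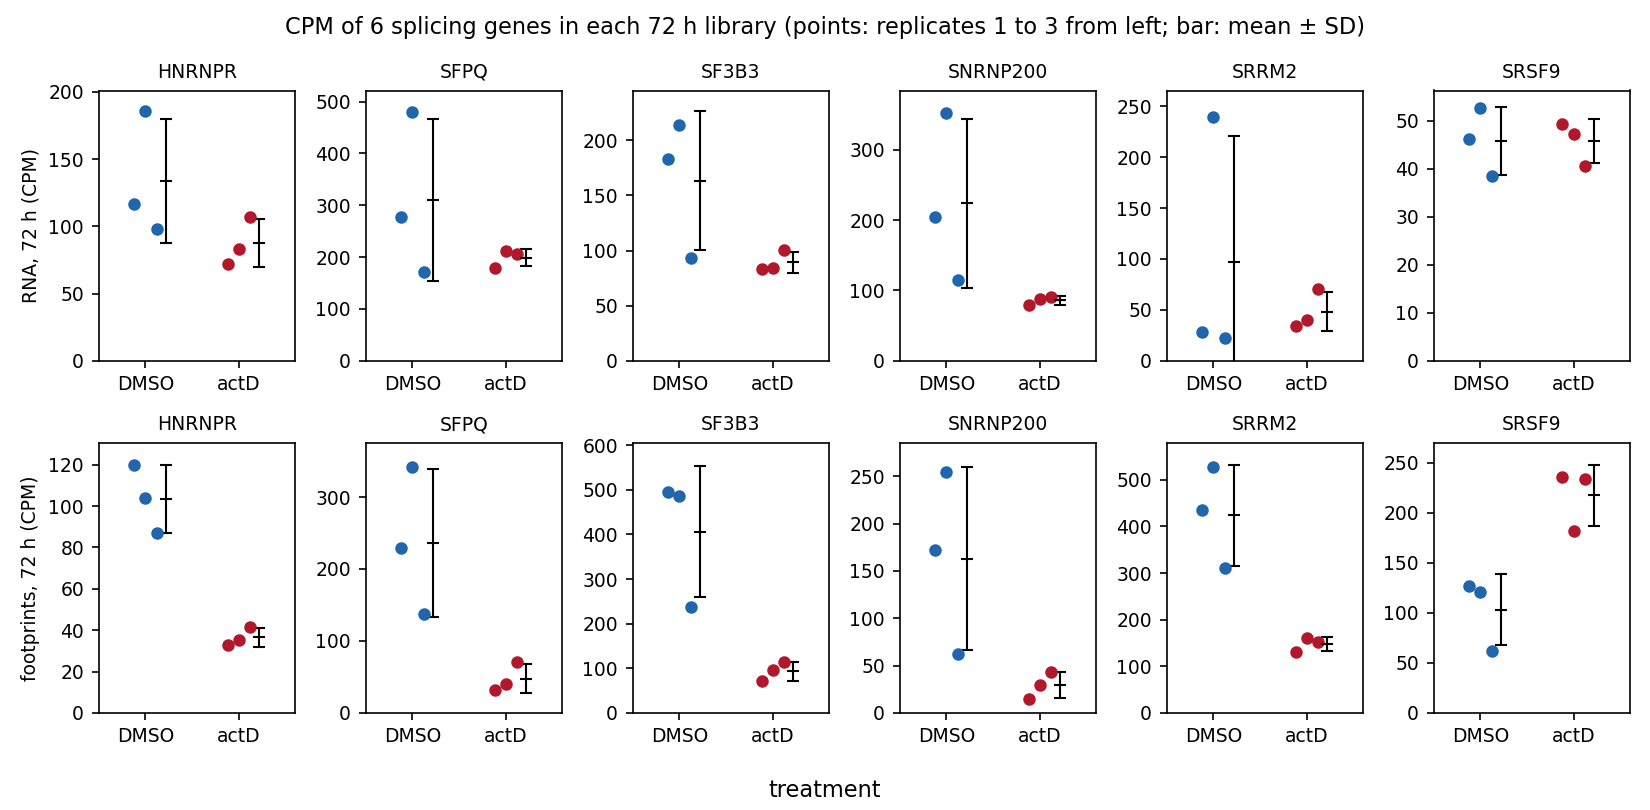
CPM (y axis, from 0) of HNRNPR, SFPQ, SF3B3, SNRNP200, SRRM2 and SRSF9 at 72 h in RNA (top) and footprints (bottom), for DMSO and actD (x axis). Points are libraries, replicates 1 to 3 from left to right, and bars are mean ± SD (n = 3). In footprints the groups are separate for all 6 genes, and SRSF9 is the one that is higher in actD.

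By role, the median footprint difference at 72 h was -0.59 for 11 SR proteins, -0.76 for 5 SR-related proteins, -0.85 for 20 hnRNP genes and -0.97 for 7 core subunits. SRSF9 had the highest value of all, with 236, 182 and 234 CPM in actD against 127, 121 and 62.2 in DMSO (1.02, SE 0.39, edgeR adjusted p = 0.146). Its RNA was equal in both groups, at 45.8 ± 4.60 and 45.9 ± 7.08 CPM. At the low end, SF3B1 had 1, 3 and 24 counts in actD and 33, 57 and 0 in DMSO, a log2 fold change of -2.83 with an SE of 1.03. U2AF2 and SNRNP70, core subunits too, were at 0.36 and 0.02, so the 7 core subunits did not all lie below 0.

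The 52 genes took 1.19% ± 0.284 of protein-coding footprint counts in actD and 2.51% ± 1.09 in DMSO at 72 h. The DMSO libraries ranged from 1.28% to 3.35% and the actD libraries from 0.919% to 1.49%, so the groups overlapped. At 2 weeks the share was 1.87% ± 0.427 in actD and 2.63% ± 0.0576 in DMSO. There the actD libraries reached at most 2.37% and the DMSO libraries began at 2.59%, without overlap. At 6 h it was 3.06% ± 0.367 against 3.51% ± 0.225, with overlap.

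At 6 h 38 splicing genes passed the filter in footprints, with a median log2 fold change of -0.19 against 0.11 over all genes, and 28 were lower. Of all genes 43.2% were lower. Over the 810 protein-coding genes tested the median was -0.12, and 59.1% were lower. The difference between the splicing genes' median and that of all genes, -0.31, was -0.040 without the filter on low counts and -0.18 without actD replicate 1, and with library totals, which shifted the median of all genes by -0.72, all 38 were lower. At 2 weeks 41 passed, with a median of -0.26 against 0.02, and 28 were lower, against 48.7% of all genes. By edgeR none passed at either time, as for 0% and 0% of all genes, and DESeq2 called 1 at 6 h (0.413% of all genes) and none at 2 weeks. Lower with an unadjusted p under 0.05 were 1 of 38 (1.9% of all genes) and 4 of 41 (4.51%), and lower without overlap were 8 of 38 (5.69%) and 4 of 41 (6.57%). THRAP3 was the gene with the smallest p at 6 h, with 10.3, 13.2 and 11.2 CPM in actD against 49.97, 62.3 and 28.9 in DMSO (-2.02, SE 0.42, edgeR adjusted p = 0.889, DESeq2 adjusted p = 0.0262). The actD values rest on 5 counts in each library. SF3B1 had 31.0, 42.4 and 6.74 CPM against 65.3, 87.0 and 68.2 (-1.46), SNRNP200 14.5, 18.5 and 22.5 against 45.9, 33.8 and 23.6 (-0.91), SRSF3 16.5, 7.94 and 29.2 against 38.7, 40.3 and 31.5 (-1.03) and ACIN1, a subunit of the ASAP complex on spliced RNA, 12.4, 13.2 and 20.2 against 33.7, 23.4 and 23.6 (-0.82). In all 5 genes, which were picked for the smallest p, actD lay below DMSO in every library. A count of 0 allowed 3.06 to 7.94 CPM in these libraries. That is more than the gap between the nearest actD and DMSO libraries of SNRNP200 and of SRSF3. SRSF3 was at -1.54 without actD replicate 3.

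At 2 weeks the footprints of SNRNP200 were at 14.8, 10.3 and 14.6 CPM in actD and 20.1, 27.9 and 30.2 in DMSO (-0.99, SE 0.27, edgeR adjusted p = 0.527). SFPQ was at 42.1, 13.7 and 14.6 CPM against 72.8, 64.8 and 57.3 (-1.45), THRAP3 at 14.8, 4.56 and 2.92 against 20.1, 22.5 and 19.6 (-1.42) and SF3B3 at 69.5, 29.6 and 33.5 against 82.1, 90.9 and 96.6 (-1.02). The groups were separate for these 4 genes. A count of 0 allowed 2.70 to 4.65 CPM in these libraries. The nearest libraries of SNRNP200 (14.8 and 20.1) and of THRAP3 (14.8 and 19.6) lay little further apart than the upper value. In actD replicate 3 THRAP3, at 2.92 CPM, was under the 4.37 CPM that a count of 0 allows there. Replicate 1 was the highest actD library for these 4 genes, and without it SFPQ was at -2.19 and THRAP3 at -2.41. HNRNPC, which binds U-rich runs, was at 27.3, 11.4 and 18.9 CPM against 20.1, 41.4 and 64.9 (-1.13), with overlap.

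Across the 6 tables, taking named actd as actD, the 3 actD libraries of SNRNP200 lay below its 3 DMSO libraries every time, as they did for 0.529% of the 756 genes tested in all 6. SF3B3 showed this in 5 tables and SF3B1 in 4. At least 4 such tables were found for 3 of the 35 splicing genes tested in all 6 and for 5.16% of the 756 genes. THRAP3 was below in all 6 tables too, but it was not tested in footprints at 72 h, where its lowest DMSO library held 3 counts, the number a count of 0 allows. The footprint separations of SNRNP200 rest on few counts as well. At 72 h its lowest DMSO library was the shallowest, where a count of 0 allows 37.3 CPM. At 6 h its nearest libraries lay closer than what a count of 0 allows, as given above. Of the 35 splicing genes tested in all 6 tables, 12 had a negative log2 fold change in each (34.3%), against 21.6% of the 756 genes tested in all 6. They were HNRNPK, HNRNPM, HNRNPR, HNRNPU, NONO, PRPF8, PTBP1, SF3B1, SF3B3, SFPQ, SNRNP200 and SRRM2. No SR protein was among them, but only 7 of the 13 SR proteins passed the filter in footprints at 6 h, so few could be tested in all 6.

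The third comparison set footprints against RNA. Translational efficiency, footprints over RNA for the same gene, was tested as the interaction of assay and treatment. At 72 h its difference was negative for 34 of 43 splicing genes and 48.1% of all genes, with medians of -0.44 and 0.03. None passed the edgeR test, against 0.433% of all genes, and 7 of 43 were lower with an unadjusted p under 0.05, against 5.76%. DESeq2 called 2 lower, SFPQ and SF3B3, with an adjusted p of 0.0413 for each, against 1.3% of all genes. SFPQ had an efficiency difference of -1.87 (SE 0.59, edgeR adjusted p = 0.189), SF3B3 of -1.45 (SE 0.48, 0.215) and ACIN1 of -1.07 (SE 0.39, 0.245). SFPQ was at 199 ± 17.2 CPM of RNA in actD and 310.1 ± 157 in DMSO, but at 47.4 ± 20.3 and 236 ± 103 CPM of footprints. ACIN1 had RNA of 88.0 ± 10.95 against 80.3 ± 31.4 CPM and footprints of 74.9 ± 10.99 against 128 ± 5.61. At 6 h and 2 weeks the medians were -0.25 and -0.17 against -0.03 and -0.02, with 26 of 38 and 26 of 41 negative. The difference from all genes at 6 h, -0.22, turned to 0.043 without the filter and was -0.14 without DMSO replicate 1 of RNA. At 2 weeks it was -0.15 and ran from -0.26 to -0.094 on leaving out 1 library. None of the splicing genes and 0% and 0% of all genes passed the edgeR test there, DESeq2 called none, and at 6 h an unadjusted p under 0.05 was reached by 3 of 38, all lower (THRAP3, ACIN1 and SRSF3, against 2.31% of all genes). Efficiency at 2 weeks takes the RNA by library name and so depends on the contradicting labels.

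**Figure D4:**
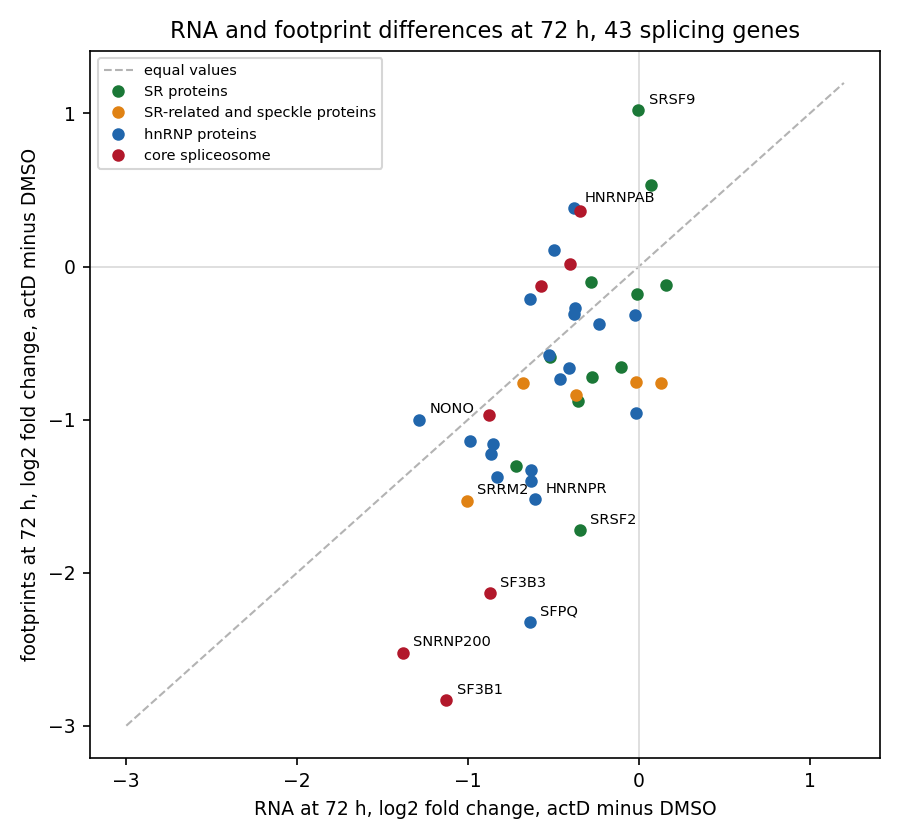
Log2 fold change (actD minus DMSO) at 72 h in RNA (x axis) and in footprints (y axis) of the 43 splicing genes tested in both, coloured by role, with a dashed line of equal values. 35 genes are negative in both assays, and SF3B1, SNRNP200, SFPQ and SF3B3 are the lowest in footprints, between -2.83 and -2.13.

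Across the 43 genes the RNA and footprint differences at 72 h had a Pearson r of 0.65 and a Spearman rho of 0.64, against 0.48 and 0.55 over 2311 genes. These are descriptions across genes of the same libraries. Of the 43, 35 were negative in both assays (81.4%), against 41.3% of the 2311.

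Footprint differences at 72 h also went with coding length, in splicing genes and in all protein-coding genes alike. Over 43 splicing genes the Spearman rho of the log2 fold change with the longest annotated coding length was -0.51, and over 2225 protein-coding genes -0.58. Among genes with under 1000 coding bases, the median was -0.18 for 11 splicing genes and 0.85 for 593 protein-coding genes. From 1000 to 2000 bases it was -0.72 for 17 and 0.10 for 746, and from 2000 to 3000 bases -1.08 for 8 and -0.48 for 391. From 3000 bases on it was -1.53 for 7 and -0.52 for 495. The splicing genes' median was the lower of both sets in each range of length, and from 3000 bases on all 7 were lower. The part of length in the differences of single genes was not tested. In RNA at 72 h the rho with coding length was -0.34 over 52 splicing genes and -0.23 over 14370 protein-coding genes.

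**Figure D5:**
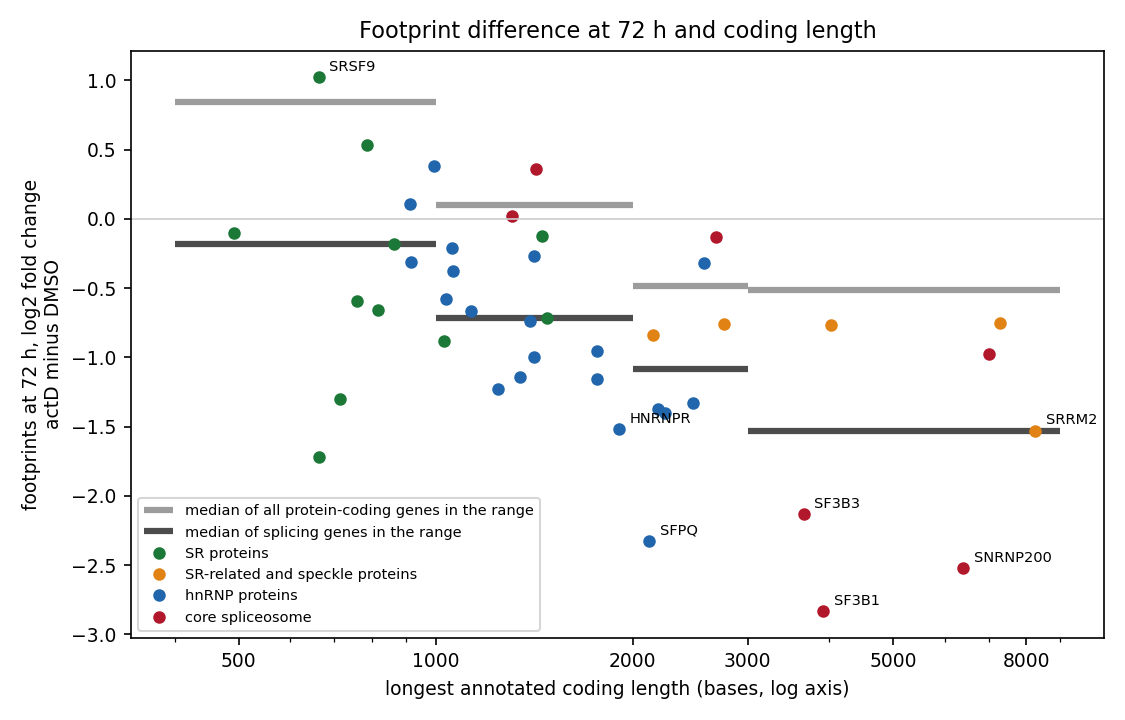
Log2 fold change of footprints at 72 h (actD minus DMSO, y axis) against the longest annotated coding length (bases, log x axis) of 43 splicing genes, coloured by role. Bars are medians within ranges of length: the splicing genes' bars run from -0.18 to -1.53, below the grey bars of all protein-coding genes, from 0.85 to -0.52.

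Differences between time points were tested directly, as the interaction of treatment and time. For RNA at 72 h against 6 h, 46 of 52 splicing genes were more negative at 72 h, with a median of -0.41 against -0.03 over all genes. None passed the edgeR test or DESeq2, against 0.0165% of all genes with edgeR, and 8 of 52 were lower with an unadjusted p under 0.05, against 5.18%. SRSF7 had the smallest p, with an interaction of -0.78 (SE 0.21, edgeR adjusted p = 0.437). For footprints at 72 h against 6 h, 29 of 47 were more negative, with none passing (0% of all genes), none with an unadjusted p under 0.05 and none by DESeq2. SFPQ had the smallest p there (-1.55, SE 0.73, edgeR adjusted p = 0.733). From 72 h to 2 weeks 34 of 46 footprint differences were more positive, with a median of 0.45 against -0.12, and none passed (0.0532% of all genes), nor with DESeq2 or at an unadjusted p under 0.05. SNRNP200 had the smallest p (1.43, SE 0.70, edgeR adjusted p = 0.659). These comparisons share the 72 h libraries.

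Other genes of the splicing machinery, from lists also drawn up with earlier results known, gave mixed values in RNA at 72 h. No gene of these lists passed the edgeR test. Of 10 spliceosomal helicases 9 were lower, with a median of -0.66, among them DDX46, which acts with U2, at -1.06 (SE 0.39) and DHX8, which releases the spliced message, at -0.999 (SE 0.27). Of 18 other subunits of the U2, U5 and Prp19 complexes 15 were lower, with a median of -0.42. CDC5L, a Prp19 subunit, was at -1.17 (SE 0.28, 38.7 against 87.2 CPM) and EFTUD2, the U5 GTPase, at -1.05 (SE 0.37). Of 25 other splicing regulators 18 were lower (median -0.24). MATR3, a nuclear matrix protein that binds RNA, was chosen for mention after its values were seen. It is carried by 2 identifiers, and reads could have been divided between them. The one used in the list, ENSG00000280987, was at 3.05 (SE 1.29, edgeR adjusted p = 0.377), with 5614, 145 and 259 counts in actD and 228, 183 and 283 in DMSO, so the value rests on actD replicate 1. The other, ENSG00000015479, was at -1.18 (SE 0.43, edgeR adjusted p = 0.328), with 3816, 11527 and 12982 counts against 13225, 23139 and 21901. Lists with medians near 0 were the Sm and snRNP core proteins (6 of 11 lower, -0.03), the exon junction complex (3 of 6, -0.0048) and the SR protein kinases (4 of 8, -0.10), in which SRPK2 was at -0.75 and SRPK1 at -0.48. NEAT1, the RNA scaffold of the paraspeckles to which SFPQ and NONO belong, went the other way, with a mean of 118 CPM in actD and 64.5 in DMSO (0.88, SE 0.20, edgeR adjusted p = 0.241), and MALAT1, a speckle RNA, was at 0.24 (SE 0.37). In footprints at 72 h SYNCRIP, the closest relative of HNRNPR, was at 32.5 CPM in actD and 123 in DMSO (log2 fold change -1.96, edgeR adjusted p = 0.0498, SE 0.43). It passed just under the threshold, and its values under the alternatives are not given here. Of the 11 other regulators tested there 10 were lower, and 1 of them passed, where 3.79% of all genes passed. SF3B5, a small SF3b subunit, was at 1.61 (SE 0.39, edgeR adjusted p = 0.063), opposite to SF3B3 and SF3B4 (-1.32).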

How the data were processed

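Total RNA and ribosome footprints of WiT49 cells were counted per gene in 36 libraries. The files deposited by the authors hold 1 column of estimated counts per gene (expected counts) for each library. They were already whole numbers, so rounding changed nothing. The submitters' processing notes name HISAT2, StringTie and the build hg38, without versions or roles. Filters, multi-mapping and strand are not given in the sources used here. Small values in the 6 h and 2-week RNA tables pile up at multiples of a step above 1 (values of 3 were 1.59 and 1.58 times as frequent as values of 2, against at most 0.699 elsewhere), so some scaling by the authors cannot be told from the sources used here, and no floor is given there. Floors cover counting error only.

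Identifiers were matched to GENCODE release 29 without their version (99.4% of them), and coordinates of printed windows are from RefSeq. The members and all lists were chosen with earlier results of these data known. Counts were tested with edgeR 4.0.16 in R 4.3.3 (quasi-likelihood, two-sided, TMM scaling, filterByExpr, Benjamini-Hochberg over all genes, threshold 0.05), 1 fit per table. Translational efficiency and time were interaction terms. CPM uses TMM library sizes. Standard errors come from the fold change and its F statistic. The tests were run on simulated counts with known changes, with the same spread for every gene and no library standing apart. That check gives no error rates for the 72 h libraries, where DMSO replicate 3 stood apart. Members with values in the text are those with the smallest p (12 in RNA at 72 h, 5 in each other table, 3 for efficiency, 1 for each time comparison), those called and the most abundant of each role. Others are named for contrast, after their values were seen. Alternatives were DESeq2 1.42.0, other scalings, filters and fits, and leaving out libraries. Replicates were no duplicates (chi-square per degree of freedom at least 7.39 in footprints). All value columns were used.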

Additional observations from a re-analysis of the deposited data

Results flagged for a closer look

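For 2 genes every actD library lay above every DMSO library in RNA at 6 h, and every library named actd below every library named dmso at 2 weeks. The genes were singled out for this pattern, and neither passed the edgeR test at either time. How many of all genes show the pattern was not counted, so it is not taken as a trait of the splicing genes. The difference between the times was not tested, since titles and library names at 2 weeks disagree. SRSF6 was at 308, 329 and 325 CPM in actD and 275, 291 and 281 in DMSO at 6 h, and at 143, 144 and 149 CPM for named actd against 162, 156 and 171 for named dmso. The 2 log2 fold changes, 0.18 and -0.17, differ by 0.35. TRA2A was at 88.6, 86.3 and 86.5 CPM against 64.1, 74.1 and 75.96 at 6 h and at 57.4, 57.7 and 55.9 against 68.0, 68.2 and 59.3 at 2 weeks, and its log2 fold changes of 0.29 and -0.19 differ by 0.48. If the titles of the 2-week libraries are right, actD lay above DMSO for both genes at both times.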

How the results depend on the processing

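Under DESeq2 2 of the splicing genes passed in RNA at 6 h, 6 at 72 h and 3 at 2 weeks, all lower. Of all genes 0.618%, 2.26% and 0.492% passed and were lower. In footprints at 6 h 1 passed (0.413% of all genes) and for efficiency at 72 h 2 did (1.3%), all lower. With edgeR none passed in these comparisons. A single edgeR fit over the 3 times called 10 lower in RNA at 72 h, against 3.61% of all genes. In footprints at 72 h, where 3 passed, 0 did with library totals (0.289% of all genes), 5 with protein-coding genes only (8.72%), 5 without the filter (2.32%) and 0 with a replicate block (0%). The labels name no shared culture, and in no table did all 3 pairs of actD and DMSO libraries of 1 number correlate above 0.1 in their deviations, so the numbers are not taken to pair the samples. RNA and footprint libraries of 1 number correlated at 72 h by 0.17, 0.18 and 0.41 in actD and 0.14, 0.053 and 0.14 in DMSO, where 1 pair stays under 0.1, and with the block efficiency at 72 h still gave 0 calls. The block changed no other count. Leaving out 1 library gave 0 to 3 in footprints at 72 h (3 without actD replicate 3, where 10.4% of all genes passed). In RNA at 2 weeks it gave 0 to 1 (1 without named dmso replicate 2, where 0.0366% of all genes passed). For efficiency at 6 h, 72 h and 2 weeks it gave 0 to 1. In the fits with 1 call, 0.21% and 0.28% of all genes passed at 6 h, 0.543% and 0.649% at 72 h and 0.167% at 2 weeks. The median of the splicing genes minus that of all genes ranged from -0.70 to -0.31 in RNA at 72 h on leaving out 1 library. It was -0.040 in footprints and 0.043 for efficiency at 6 h without the filter. With the 2-week RNA labels of the titles it was 0.14 in RNA and -0.52 for efficiency at 2 weeks. For efficiency 1 gene (SRRM2) then passed, beside 1.87% of all genes. In RNA SRRM2, HNRNPH3, THRAP3, SF3B1 and SF3B3 took the opposite signs (1.34, -0.42, 0.99, 0.98 and 0.58). SON in RNA at 72 h turned to 0.042 with protein-coding genes only and to 0.0095 in the single fit, and ranged from -0.19 to 0.16 without 1 library. Library totals moved the median of all genes by -0.72 in footprints at 6 h, -0.16 in footprints and -0.15 in RNA at 2 weeks, protein-coding scaling by -0.14 in footprints at 6 h, and the single fit by -0.26 and 0.21 in footprints at 6 h and 72 h. Of the values of single genes under alternatives, 595 kept direction and side of the threshold, 30 came to pass, 24 no longer did and 10 turned in sign. Footprint depth limits what can be tested: 9 splicing genes at 72 h, 14 at 6 h and 11 at 2 weeks fell below the filter. Causes were not tested.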
